A study of Mus musculus with 6 samples.

Results

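The genes described here are 45 genes of meiotic prophase, among 21751 protein-coding genes of the annotation. They were chosen by name, with earlier results of these data known. An interval was assigned to one of them when the transcript in its deposited annotation, or its nearest promoter, belonged to that gene. This gave 22 of 7861 TAF4b peaks in replicate 1, 3 of 848 in replicate 2, 64 of 64891 H3K4me3 regions in replicate 1 and 3 of 1730 in replicate 2.

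The data are CUT&RUN profiles of male germ cells (prospermatogonia) from mouse fetuses at E16.5, the embryonic day counted from the mating plug. In this assay an antibody guides a nuclease to its antigen, and the DNA cut loose there is sequenced. All 6 samples carry the labels C57BL/6, male and Taf4b-wildtype. Per the labels' protocols, the embryos came from matings of mice homozygous for an Oct4-EGFP transgene (stock B6;129S4-Pou5f1tm2Jae/J), and live gonad cells were sorted on green fluorescence. Each antibody had 2 libraries: TAF4b, a germ cell-enriched component of TFIID, which loads RNA polymerase II at promoters, and H3K4me3, a histone mark of promoters. The 2 IgG control libraries are not analysed here, and whether the authors called intervals against them is not given in the sources used here. The labels do not say whether replicates came from separate embryos, or how many embryos were pooled.

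Read depth is unknown, and both second lists are much shorter than the first. A gene missing from replicate 2 was not listed there, which is not the same as lacking the protein or mark. Why such genes were not listed was not tested. As a check of the sorted cells, H3K4me3 replicate 1 had a region in the window from 1000 bp before to 100 bp after an annotated transcription start site (TSS) of 6 of 8 germ cell marker genes, against 69.1% of all protein-coding genes. The germ cell markers without one were Nanos2 and Nanos3. H3K4me3 replicate 1 had a region at 3 of 12 somatic marker genes: Gata4, Sox9 and Wt1. These are Sertoli and supporting cell markers, of which only Amh had none. No Leydig, endothelial or blood marker had one. In replicate 2 the only marker with a region was the somatic gene Wt1. The part of somatic cells in the values below was not tested.

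Meiosis makes haploid cells through a single round of replication and a pair of divisions. In its long prophase, chromosomes build a cohesin-based axis, break their own DNA, search for and invade the homologous partner, and are zipped together by the synaptonemal complex while some breaks mature into crossovers. In the mouse, female germ cells begin this programme in the fetal ovary. Male germ cells in the fetal testis instead arrest in the mitotic cycle, and their descendants enter meiosis after birth. The intervals below were assigned to genes of this programme, at promoters or elsewhere. Their expression is not part of these data, and some, such as Sun1, also have roles outside meiosis.

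Peak sequences are shown first for the members whose TAF4b peaks were listed in both replicates, or held an E-box outside annotated exons. The E-box is the hexamer bound by MAX, MGA and MYC proteins. Each is the longest stretch of the replicate 1 peak outside annotated exons, on GRCm39, read 5′ to 3′ on the strand of the gene. Capitals mark the motifs that were searched: the E-box (CACGTG), the core of the E2F site (GCGGGAA), the box of SP and KLF factors (GGGCGG, here called the GC box), the CCAAT box, and the sequence bound by STRA8 and MEIOSIN (CNCCTCAG), each on either strand, and touching or overlapping motifs run together.
Meiosin, chr7:18852373-18852515, minus strand: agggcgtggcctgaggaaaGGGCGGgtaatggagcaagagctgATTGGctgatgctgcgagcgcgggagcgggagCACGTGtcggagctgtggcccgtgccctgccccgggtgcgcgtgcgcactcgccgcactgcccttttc
Sycp3, chr10:88295315-88295430, plus strand: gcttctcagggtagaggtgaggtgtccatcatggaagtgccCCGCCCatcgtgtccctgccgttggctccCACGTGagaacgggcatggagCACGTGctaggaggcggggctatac
Tex12, chr9:50472632-50472755, minus strand: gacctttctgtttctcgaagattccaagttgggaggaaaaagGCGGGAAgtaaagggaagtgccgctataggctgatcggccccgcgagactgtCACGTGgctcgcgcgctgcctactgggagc
Meiob, chr17:25023162-25023257, plus strand: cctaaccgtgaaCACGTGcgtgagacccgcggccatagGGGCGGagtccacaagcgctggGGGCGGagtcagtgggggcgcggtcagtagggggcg
Sycp2, chr2:178048736-178048796, minus strand: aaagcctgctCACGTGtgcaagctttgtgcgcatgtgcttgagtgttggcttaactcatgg
Msh5, chr17:35265796-35265876, minus strand: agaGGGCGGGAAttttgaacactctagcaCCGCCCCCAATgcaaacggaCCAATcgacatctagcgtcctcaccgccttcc
Shoc1, chr4:59117905-59117970, minus strand: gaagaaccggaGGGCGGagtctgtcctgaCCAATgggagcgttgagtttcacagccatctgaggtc
Terb2, chr2:122016690-122016727, plus strand: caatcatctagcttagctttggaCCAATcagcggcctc

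TAF4b was listed at the promoters of 14 of the 45 genes in replicate 1 (31.1%), where all protein-coding genes gave 22.7%. The count takes peaks of the deposited promoter-TSS class and the transcript named with it. The genes were Meiosin, Rec8, Sycp3, Hormad2, Sycp1, Syce1, Syce2, Tex12, Six6os1, Prdm9, Meiob, Spata22, Msh5 and Hfm1. In replicate 2 the promoter count was 1 of 45 (2.22%), Msh5, where all protein-coding genes gave 3.14%. By this rule the share of members was above that of all genes in the longer list and not in the shorter one. Naming genes by the nearest promoter in place of the annotated transcript added Stag3, Cntd1 and Terb2 and dropped Spata22, for 16 genes in replicate 1 (22.7% of all protein-coding genes by that rule), and added Terb2 in replicate 2, for 2 genes (3.14% of all). Each of these added peaks lies at the paired start sites of the member and a neighbouring gene transcribed the other way (Gpc2, Coa3 and Patl2), so which of the pair it belongs to cannot be told apart. The nearest promoter to the dropped Spata22 peak is that of Aspa.

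H3K4me3 regions classed as promoter-TSS were listed at 23 of 45 genes in replicate 1 (51.1%), where all protein-coding genes gave 44.0%, and at 2 of 45 in replicate 2 (4.44%), Meiob and Sun1, where all gave 4.14%. The class is set by the centre of a region, so wide regions around a start site can be classed as exon or intron. Counted by overlap with the window around any annotated TSS, 41 of 45 genes (91.1%) had a region in replicate 1, against the 69.1% given above. The same rule gave TAF4b peaks at 21 of 45 genes (46.7%) in replicate 1, against 27.5% of all protein-coding genes, and at 4 of 45 (8.89%) in replicate 2, against 4.04%. By the centre of an interval within 1000 bp of the nearest TSS, TAF4b was listed at 19 members in replicate 1 (23.9% of all protein-coding genes) and 2 in replicate 2 (3.2% of all), and H3K4me3 at 35 (62.0% of all) and 3 (5.89% of all). Any interval at any distance was assigned to 22 members (29.0% of all) and 3 members (3.82% of all) for TAF4b, and to 42 (78.4% of all) and 3 (7.46% of all) for H3K4me3. In H3K4me3 replicate 2 the window rule gave 4 members, against 6.5% of all protein-coding genes. Naming by the nearest promoter gave 23 members in H3K4me3 replicate 1 (44.4% of all) and 3 in replicate 2 (4.25% of all), the third being Trip13. A replicate 1 region lay across the canonical TSS itself in 31 of 45 genes (68.9%), against 56.2%.

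Distances of peak centres given below are those of the authors' annotation, from the nearest TSS in it, unless the canonical TSS is named, as in the map of intervals. At Rec8, Sycp1, Hormad2, Syce2 and Hfm1 a centre deposited as upstream lay downstream of the canonical TSS, by 26, 26, 14, 68 and 368 bp. The side of the TSS also differed between these annotations for the Stag3 and Shoc1 peaks. For the Spata22 peak the deposited distance is from the nearest promoter, which is that of Aspa.

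**Figure D1:**
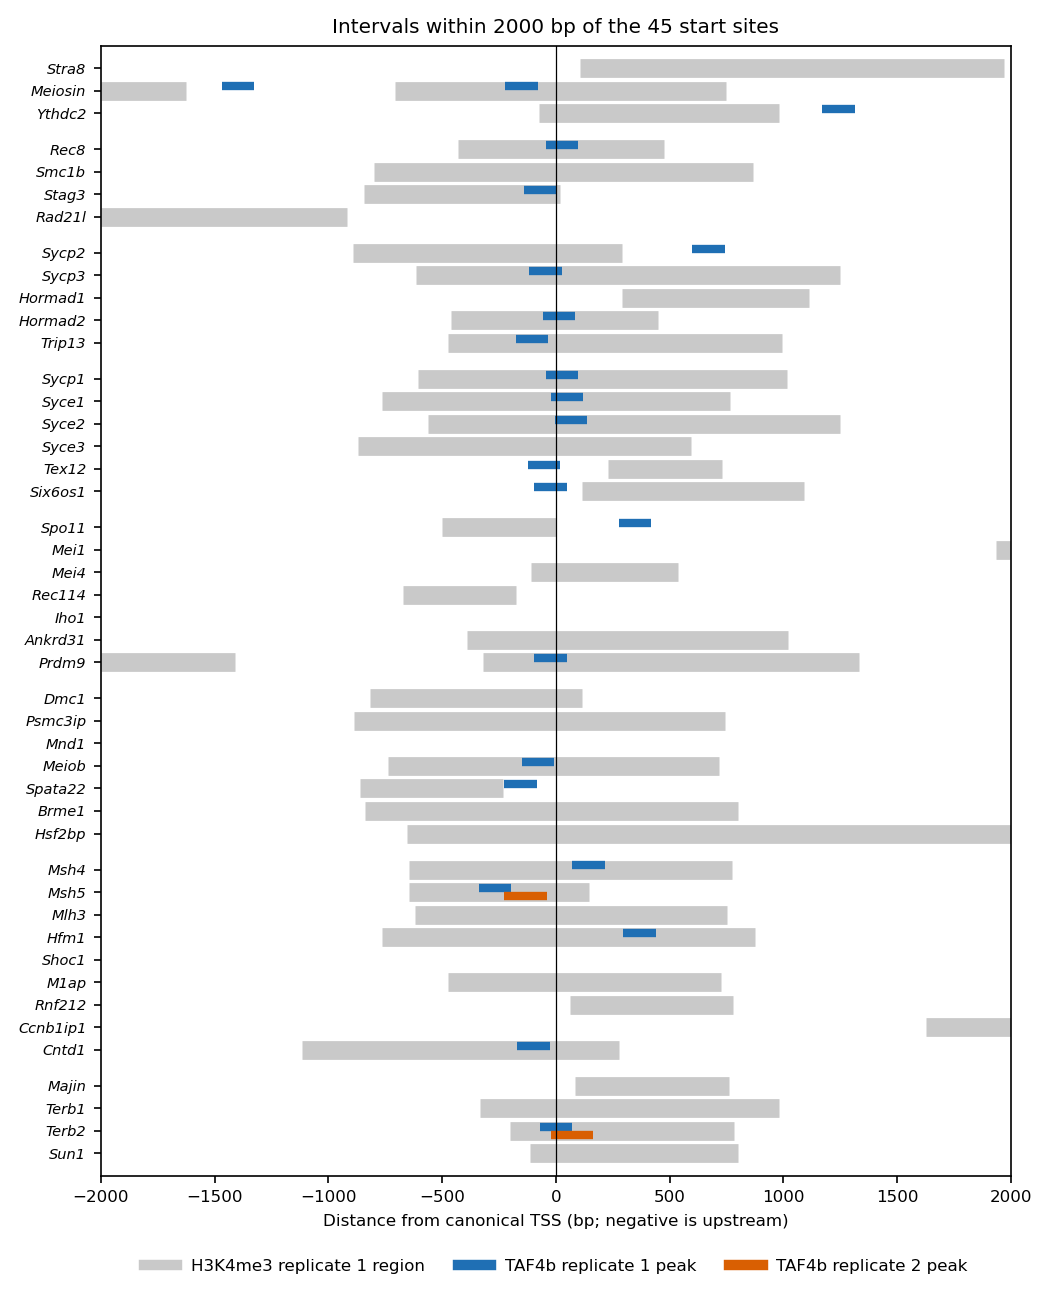
Map of the intervals within 2000 bp of the canonical TSS of each of the 45 genes, grouped by role. The horizontal axis is the distance from the TSS in bp, with negative values upstream; grey bars are H3K4me3 replicate 1 regions, blue bars TAF4b replicate 1 peaks and orange bars TAF4b replicate 2 peaks, whichever gene they are annotated to. H3K4me3 regions cross the TSS line in 31 genes, TAF4b replicate 1 peaks in 11 and a TAF4b replicate 2 peak in 1, Terb2.

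By overlap with the TSS window, H3K4me3 replicate 1 had a region at 3 of 3 genes of meiotic entry, against 69.1% of all protein-coding genes. By the promoter class the count was 1 of 3, against 44.0% of all. TAF4b promoter peaks were listed at 1 of 3 in replicate 1 and 0 of 3 in replicate 2, against 22.7% and 3.14% of all. STRA8 and MEIOSIN are partner proteins that switch on the meiotic programme, and YTHDC2 is an RNA helicase that helps cells leave the mitotic programme. Stra8 had the highest-scoring H3K4me3 region of all members, with a score of 269.8 and rank 192 of 64891 (the score is the authors' own and is used only within a list). That region, chr6:34897955-34899821, began 105 bp downstream of the canonical TSS. The nearest TAF4b peak of replicate 1 lay 9929 bp from the Stra8 TSS, and no interval of either antibody in replicate 2 was assigned to Stra8. Meiosin carried both, a TAF4b peak with a score of 12.4 (rank 4789 of 7861) centred 151 bp upstream of its TSS and an H3K4me3 region with a score of 68.6 that spanned it. At Ythdc2 the TAF4b peak (score 11.9) was intronic, 1243 bp downstream, and lay outside the H3K4me3 region over its TSS.

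Among the meiotic cohesin genes, whose products hold sister chromatids together and form the base of the axis, TAF4b was listed at Stag3 and Rec8. By the promoter class the count was 1 of 4 in replicate 1 and 0 of 4 in replicate 2, against 22.7% and 3.14% of all protein-coding genes. By the TSS window it was 2 of 4 in replicate 1, against 27.5% of all. The Stag3 peak (chr5:138278462-138278604) had a score of 43.7 and rank 102, within the top 1.3% of the replicate 1 list and the highest of all members, but its annotated promoter is that of Gpc2, as is that of the H3K4me3 region over the Stag3 TSS (score 56.6). The Rec8 peak (chr14:55855410-55855552) had a score of 28.3, in the top 11.5%, and was centred 13 bp upstream of the TSS. Neither gene had a peak in replicate 2. Smc1b had an H3K4me3 region over its TSS (score 77.5) and no TAF4b peak. That region also covered the TSS of Ribc2, which is transcribed the other way and lies 75 bp away. For Rad21l, the kleisin that acts beside REC8, the one interval assigned was an intergenic H3K4me3 region 1683 bp upstream (score 79).

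Promoter peaks of TAF4b in replicate 1 were listed at 2 of 5 axis genes (22.7% of all protein-coding genes), and those of replicate 2 at 0 of 5 (3.14% of all). Sycp3, a core filament of the axis, had a peak with a score of 20.3 (top 28.6%) centred 45 bp upstream of the TSS, inside an H3K4me3 region of 1865 bp with a score of 169.9, in the top 2.43% of that list. Hormad2, an axis protein that marks unsynapsed chromosomes, had a peak with a score of 18.4 centred 80 bp upstream. The TAF4b peak of Sycp2, the partner filament of SYCP3, was intronic, 408 bp downstream of the TSS, with a score of 10.4. Hormad1 had H3K4me3 but no TAF4b. Trip13, the ATPase that removes HORMA proteins from synapsed axes, had the nearest promoter to an H3K4me3 region in both replicates (scores of 98.4 and 111.2 in their own lists). A TAF4b peak with a score of 9.43 lay 35 bp from its TSS. All 3 intervals were annotated to the neighbour Brd9, so the main rule did not count them.

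The central region of the synaptonemal complex, the zipper between paired axes, had TAF4b promoter peaks at 5 of 6 genes in replicate 1 (22.7% of all protein-coding genes) and at 0 of 6 in replicate 2 (3.14% of all). Sycp1, the transverse filament, had a score of 18.9 with its peak centred 13 bp upstream of the TSS. Tex12 had a score of 18.4 (59 bp upstream), Six6os1 a score of 16.4 (23 bp upstream), Syce2 a score of 12.4 (14 bp upstream) and Syce1 a score of 9.43 (4 bp downstream). These 5 peaks ranked between the top 33.2% and the top 80.3% of the list, so none was among its strongest. Syce3 alone in this role had no TAF4b peak, although its H3K4me3 region (score 144.6, top 4.8%) ranked above those of the other five. The Tex12 and Six6os1 peaks did not overlap an H3K4me3 region of replicate 1, whose nearest region lay 229 bp and 114 bp from the canonical TSS of these genes. The Six6os1 peak did overlap a replicate 2 H3K4me3 region at chr12:72964085-72964713 (score 116.2), which spanned the canonical TSS but carried a transcript identifier absent from the annotation used here, so the assignment rule did not count it.

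Among 7 genes for double-strand break formation, replicate 1 listed a promoter peak of TAF4b at 1, Prdm9, and replicate 2 at 0, where all protein-coding genes gave 22.7% and 3.14%. Prdm9 encodes the histone methyltransferase that places recombination hotspots, and its peak had a score of 24.8 (top 17.3%), centred 22 bp upstream of the TSS, inside an H3K4me3 region with a score of 101.4. Spo11, the enzyme that cuts the DNA, had an intronic TAF4b peak 317 bp downstream of the TSS with a score of 8.93. Its H3K4me3 region, at the list's smallest width of 500 bp and with a score of 20.9, ended at the TSS and did not overlap that peak. Mei1, Mei4, Rec114, Iho1 and Ankrd31, which act with SPO11 in making breaks, had no TAF4b peak. Among them H3K4me3 lay over the TSS of Mei4 (score 32.8) and Ankrd31 (score 83.5). Rec114 had a region upstream of its TSS (score 28.3), and the closest regions to the canonical TSS of Mei1 and Iho1 lay 1933 bp and 2602 bp away.

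Strand exchange genes with a promoter peak of TAF4b numbered 2 of 7 in replicate 1 and 0 of 7 in replicate 2, against 22.7% and 3.14% of all protein-coding genes. Meiob, which with SPATA22 binds single-stranded DNA at breaks, had a TAF4b peak with a score of 15.9 (top 44%) centred 77 bp upstream of the TSS. It was also the member with H3K4me3 ranked highest in replicate 2, with a score of 126.7 (top 7.54%) in replicate 1 and 161.7 (top 9.71%) in replicate 2. Spata22 had a score of 9.93, and its peak (chr11:73220327-73220469) lay just outside the H3K4me3 region beside it (chr11:73219691-73220321). Both intervals were annotated to Spata22, but the nearest promoter to each is that of Aspa, so which gene they belong to cannot be told apart. Dmc1, the meiotic recombinase, had H3K4me3 (score 70.1) and its nearest TAF4b peak of replicate 1 lay 12025 bp away. Psmc3ip (score 147.6) and Brme1 (score 102.9) likewise had H3K4me3 over the TSS without TAF4b. The Brme1 region also covered the TSS of Cc2d1a, which is transcribed the other way and lies 42 bp away. Hsf2bp, which with BRME1 brings recombinases to breaks, lay under the widest region over any member's TSS, 2800 bp with a score of 146.1, which was annotated to its neighbour Rrp1b. Mnd1, the partner of PSMC3IP, had neither near its TSS, from which the closest H3K4me3 region of replicate 1 lay 16787 bp away.

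Overlapping TAF4b peaks in both replicates were assigned to 3 of 45 members (6.67%), against 3.03% of all protein-coding genes, and 2 of the 3 were crossover genes. By the promoter class, 2 of 9 crossover genes had a TAF4b peak in replicate 1 and 1 of 9 in replicate 2, against 22.7% and 3.14% of all. Msh5, which with MSH4 forms a clamp that stabilises recombination intermediates, had a score of 34.7 (rank 398, top 5.06%) at chr17:35265796-35265938 in replicate 1 and of 48.6 (rank 635 of 848) at chr17:35265636-35265824 in replicate 2. The intervals shared 29 bases, and their centres lay 146 bp and 9 bp upstream of the deposited TSS. Shoc1, a protein that promotes crossover formation, had a score of 31.8 (top 7.29%) in replicate 1 and of 60.7 (top 45%) in replicate 2, and the replicate 2 interval held all 143 bases of the first. Both Shoc1 peaks were classed as intronic, 6799 bp and 6814 bp upstream of the TSS used in the deposited annotation. In the later GENCODE M39 set, Shoc1 transcripts start at 59117889 and 59117904 on chromosome 4, inside both peaks, and an H3K4me3 region (chr4:59117664-59118450, score 56.6) covered the same place. Hfm1, a helicase needed for crossovers, had a TAF4b score of 12.9, with its peak centred 63 bp upstream of the deposited TSS and 368 bp downstream of the canonical TSS. Cntd1 had 21.3, in the interval shared with Coa3, and Msh4 had 15.4 in a peak classed as exon, 143 bp downstream of the TSS. Mlh3, which encodes an endonuclease that resolves crossovers, Rnf212, whose product marks crossover sites, and M1ap had H3K4me3 without TAF4b (scores of 68.6, 34.3 and 71.5). At Ccnb1ip1 a strong H3K4me3 region (score 172.9, top 2.25%) had no TAF4b peak, while its most upstream annotated start lay under or beside TAF4b peaks of both replicates that are annotated to Parp2.

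Genes for attaching telomeres to the nuclear envelope had no TAF4b peak annotated to their own promoters, 0 of 4 in each replicate, against 22.7% and 3.14% of all protein-coding genes. Terb2 was the remaining gene with overlapping peaks in both replicates, with scores of 20.8 (top 26.7%) and 48.6 (top 74.9%) and 95 shared bases. Both peaks covered its TSS, which lies 55 bp from that of Patl2. TERB2, TERB1 and MAJIN form the complex that links telomeres to the envelope. Sun1, a nuclear envelope protein with roles outside meiosis, had H3K4me3 in both replicates (scores of 76 and 116.2 in their own lists) and no TAF4b. Terb1 (score 126.7) and Majin (score 32.8) had H3K4me3 in replicate 1.

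**Figure D2:**
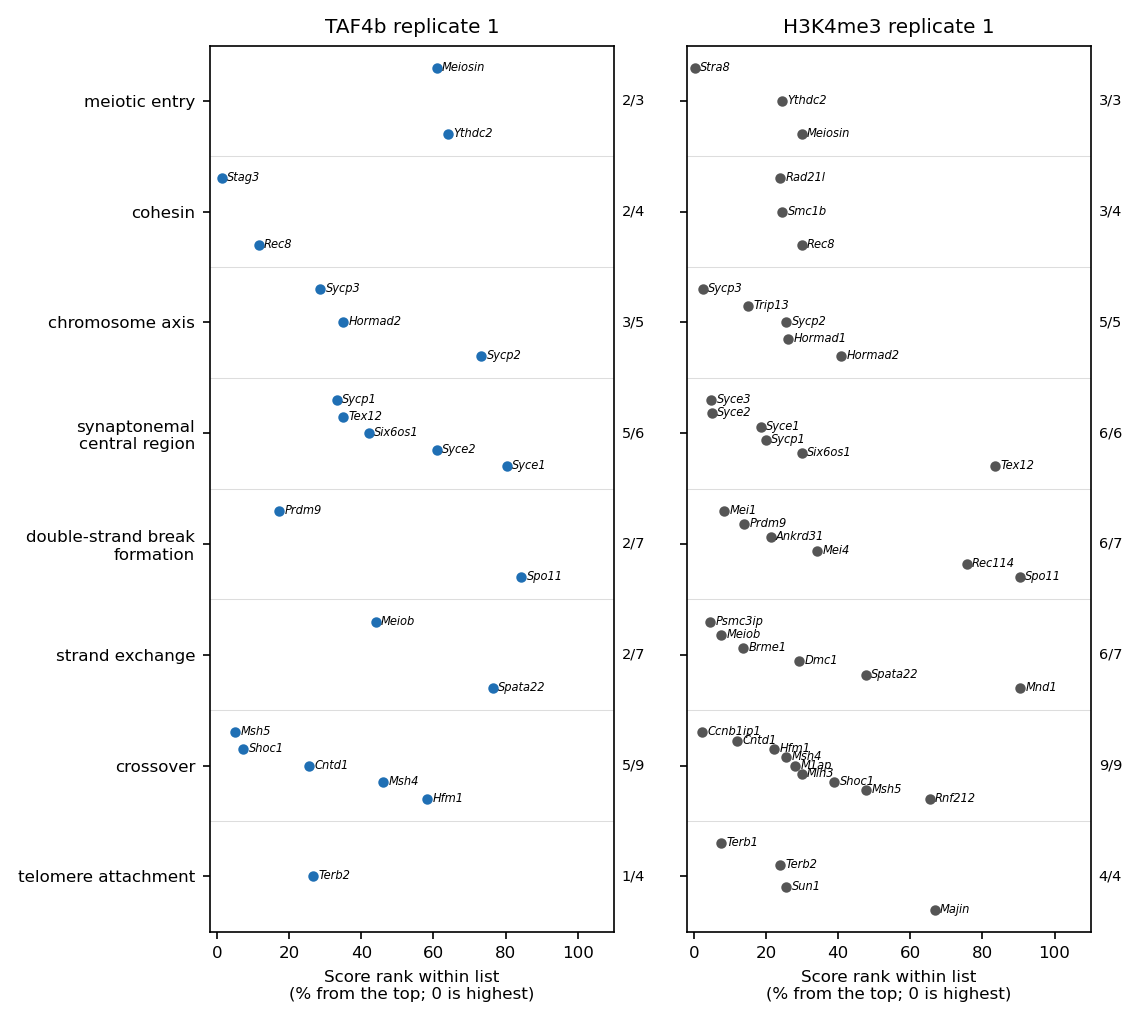
Rank of the highest-scoring interval assigned to each gene within the TAF4b replicate 1 list (left) and the H3K4me3 replicate 1 list (right), at any distance from the TSS, as a percentage from the top (0 is the highest score). Rows are roles, and the fractions give genes with an interval over genes in the role; Stag3 at 1.3% leads on the left and Stra8 at 0.296% on the right, while 23 genes have no point on the left and 3 have none on the right.

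The members' promoter intervals were set beside those of all genes in rank, position and width. The 14 TAF4b promoter peaks of replicate 1 had a median rank at the top 38.5% and a median distance of -34 bp from the TSS, against 40.2% and -51 bp over all 5756 promoter peaks. Of them 12 lay upstream of the deposited TSS (85.7%), against 80.8%. The 23 H3K4me3 promoter regions had a median width of 1410 bp against 1200 bp over all 13454, and a median rank at the top 25.6% against 24.5%. Regions over the canonical TSS had a median width of 1411 bp for members and 1502 bp for all protein-coding genes, the other way round, and their median rank was lower in members, at the top 23.9% against the top 15.0%. Members' TAF4b promoter peaks of replicate 1 overlapped an H3K4me3 region of replicate 1 by at least 1 bp in 11 of 14 cases (78.6%), against 86.3% of all, and the exceptions were Tex12, Six6os1 and Spata22. Against the shorter H3K4me3 list of replicate 2 the overlap was 2 of 14 (14.3%), those of Six6os1 and Meiob, against 8.36% of all. An H3K4me3 region of replicate 1 covered the TSS in 14 of the 17 members with a TAF4b promoter peak by either naming (82.4%) and in 17 of the 28 without (60.7%), where the shares over all protein-coding genes were 81.5% and 47.5%.

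The sequence around the start sites was compared in 300 bp windows, from 250 bp before the canonical TSS to the 50th base from it, in all 45 members and 21747 protein-coding genes. The E-box CACGTG was present in 12 of 45 member windows (26.7%) and 7.82% of all. Among the 17 members with a TAF4b promoter peak it was present in 8 (47.1%), and among the 28 without in 4 (14.3%), where all protein-coding genes with and without such a peak gave 11.8% and 6.47%. The E2F core GCGGGAA, bound by E2F6 and other E2F proteins, was present in 12 of 45 windows (26.7%) and 5.59% of all, with 7 of 17 (41.2%) and 5 of 28 (17.9%) in members with and without TAF4b, where all protein-coding genes gave 9.5% and 4.25%. One or both of these were found in 19 members (12.9% of all genes) and both in 5 members (0.501% of all genes). The NRF1 site, a palindrome, was present in 4 members (8.89%) and 1.16% of all. The CCAAT box was present in 53.3% of member windows and 39.9% of all, the GC box GGGCGG in 48.9% and 42.5%, CNCCTCAG in 13.3% and 7.89%, the MYB core GGCNGTT in 11.1% and 11.7%, and TATAAA in 11.1% and 13.2%. The cAMP response element TGACGTCA was in none of the 45 windows and in 2.44% of all. Median GC content was 59% in members and 54.3% over all, and the median ratio of observed to expected CpG was 0.625 and 0.517.

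Within the TAF4b peaks themselves, 9 of the 22 replicate 1 peaks held an E-box (40.9%), against 7.24% of all 7861 peaks of the same length. They were the peaks of Meiosin, Sycp2, Sycp3, Syce2, Tex12, Six6os1, Meiob, Shoc1 and Cntd1, and the printed Sycp3 sequence holds 2 copies. In replicate 2 the Shoc1 peak, 1 of 3, held an E-box, against 7.43% of all. It contains the whole replicate 1 Shoc1 peak, so this is the same E-box. The replicate 2 Msh5 peak, 1 of 3, held GCGGGAA (5.42% of all), CNCCTCAG (7.43%) and the MYB core (9.55%). The GC box was in 3 of 3 replicate 2 peaks (67.1% of all) and the CCAAT box in 2 of 3 (58.5%). GCGGGAA was in 4 of 22 replicate 1 peaks (18.2%), those of Msh5, Prdm9, Tex12 and Syce2, against 4.2%. CNCCTCAG was in 5 of 22 (22.7%), those of Prdm9, Sycp1, Hormad2, Hfm1 and Syce2, against 4.77%. The GC box was in 10 of 22 (45.5%), against 48.5%, and the CCAAT box in 7 of 22 (31.8%), against 39.5%. These are letter matches in small numbers of sequences, no test was made, and no binding of these factors was measured. The motifs and members were chosen with earlier results of these data known.

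**Figure D3:**
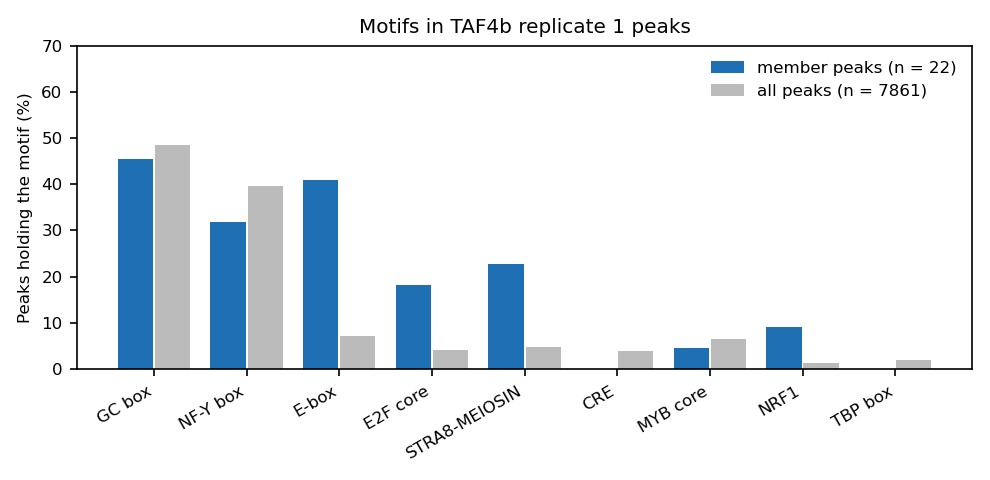
Share of TAF4b replicate 1 peaks (143 bases each) that hold each of 9 motifs on either strand, for the 22 peaks assigned to meiotic prophase genes (blue) and all 7861 peaks (grey); the NF-Y box is the CCAAT box, the TBP box is TATAAA and CRE is the cAMP response element. The E-box stands at 40.9% against 7.24%, while the GC box stands at 45.5% against 48.5%.

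TAF4b peaks were also counted at other genes of the pathway, in lists chosen with earlier results of these data known. Among 22 further meiotic prophase genes, replicate 1 listed a promoter peak at 12, where all protein-coding genes gave 22.7%: Cdk2, Exo1, Fbxo47, Fignl1, Mcmdc2, Meioc, Prr19, Rbm46, Sgo2a, Tex11, Zcwpw1 and Zfp541. The highest scores were those of Prr19 (32.3), Meioc (30.3), a partner of YTHDC2, and Rbm46 (27.3), an RNA-binding protein needed for meiotic entry. In replicate 2 the count was 1 of 22, against 3.14% of all protein-coding genes. It was Zcwpw1, a reader of the marks placed by PRDM9. Its replicate 2 peak (chr5:137784968-137785156) did not overlap its replicate 1 peak (chr5:137785882-137786024). Regulators of meiotic entry with such a peak numbered 7 of 12 in replicate 1 (22.7% of all protein-coding genes) and 2 of 12 in replicate 2 (3.14% of all). These were Dazl, a germ cell RNA-binding protein, the retinoic acid receptor genes Rara and Rarg, and Max, Mga, L3mbtl2 and Pcgf6, which encode subunits of a Polycomb complex known to repress meiotic genes. Max and Mga, whose proteins bind the E-box, were the pair listed in both replicates. Max had a score of 35.2 (top 4.68%) centred 215 bp upstream in replicate 1 and 64.8 (top 38.6%) centred 198 bp upstream in replicate 2. Mga had 21.8 (top 24.2%) and 48.6 (top 74.9%). Nanos2, Dmrt1, Cyp26b1, Rarb and E2f6 had no TAF4b promoter peak in either list.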

How the data were processed

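Peaks (TAF4b) and regions (H3K4me3) were listed by the authors for each library separately. Per the file headers, H3K4me3 regions were annotated with HOMER annotatePeaks on GRCm39 with Ensembl 103; the TAF4b headers name no build, and the submitters' processing notes name GRCm39 and list HOMER 4.10, Bowtie2 2.3.0 and SAMtools 1.9. The peak score is the authors' deposited score; its scaling and the calling threshold are not given in the sources used here. Coordinates, distances to the TSS and annotation classes are as deposited.

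Transcript identifiers were matched to GENCODE M39 (98.6% to 99.2% of those listed were found). Six6os1 is listed there under another symbol, and all 45 genes matched. Sequences come from the GRCm39 genome. The window and motif searches were tested on simulated data with Python 3.11.15. Members, gene lists and motifs were chosen with earlier results of these data known. No test was run: each list comes from 1 library, the study has 1 genotype and stage, and genes are not replicates. Every member with a TAF4b interval or an H3K4me3 replicate 2 region was to be named with values, and the others by role.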

Additional observations from a re-analysis of the deposited data

How the results depend on the processing

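Of 28 alternative counts, 14 stayed within 1.5 times the main count. For TAF4b replicate 1, the main count of 14 genes became 9 in the higher-scoring 50% of peaks and 1 when that list was cut to as many peaks as replicate 2. For TAF4b replicate 2, the main count of 1 became 2 by the nearest promoter, by a centre within 1000 bp of the TSS or by either column (the last chosen after seeing the data), 4 by overlap with the window around any TSS, and 0 in the higher-scoring 50%. For H3K4me3 replicate 1, the main count of 23 became 35 by a centre within 1000 bp, 41 by overlap with the window, and 0 with as many regions as replicate 2. For H3K4me3 replicate 2, the main count of 2 became 4 by overlap with the window. The 11 TAF4b promoter peaks in H3K4me3 regions became 7 in the higher-scoring 50% of both lists. Leaving out each replicate gave 1 to 14 genes for TAF4b and 2 to 23 for H3K4me3, the low values without replicate 1. Shorter lists hold fewer genes by construction, and the cause of the other changes was not tested. No paired analysis was possible because the results are counts within single lists and come from no test.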
